A study of Mus musculus with 4 samples.

Results

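Gnas is an imprinted mouse gene on chromosome 2 that is transcribed from several promoters, and the values given here are the counts of its exon parts, with those of its antisense transcript Nespas, in embryonic stem cell aggregates with and without an induced motor neuron program. The members were all numbered part rows of the 2 gene units that map to Gnas and Nespas. There were 20 Gnas parts and 5 Nespas parts, together 25 of the 208825 parts and 2 of the 21822 gene units in the tables. The locus was selected on the difference between its part counts with and without Dox in these libraries, so those values are a description and carry no test.

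The cells were iMN-ESCs, a mouse embryonic stem cell line with a C57BL/6 background label, in which doxycycline (Dox) induces a fusion of the transcription factors Isl1 and Lhx3. All 4 libraries came from cells of this line, which carry the inducible fusion and had been held as suspended aggregates for 2 days in medium with LIF and then for 2 days with 0.5 µM all-trans retinoic acid. During the last 2 to 3 days the no Dox group (replicates 1 and 2) stayed in retinoic acid and the Dox group (replicates 1 and 2) received 2 µg/mL Dox in addition to retinoic acid. The replicates are described as biological duplicates, and with no group that received Dox without the fusion, the drug and the fusion cannot be told apart.

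Counts over all parts summed to between 24020832 and 53903936 per library, and levels are given below as counts per 1000000 counts of that sum (CPM). The level of Lhx3, a part of the induced fusion, was 0.390 and 0.291 CPM in the no Dox libraries and 125 and 109 CPM in the Dox libraries. Of 7 motor neuron markers 6 were called higher with Dox by edgeR's quasi-likelihood test (Benjamini-Hochberg adjusted p under 0.05), against 1.23% of all 14283 genes tested, and their summed level was 7.65 and 10.1 CPM without and 343 and 312 CPM with Dox. This sum includes Isl1 and Lhx3, whose own reads and those of the induced fusion cannot be told apart. Of the other 5 markers 4 were called higher, and their summed level was 4.28 and 3.83 CPM without and 114 and 119 CPM with Dox. None of 8 primitive and parietal endoderm markers was called by edgeR or DESeq2 (median log2 change 0.06, 0 at an unadjusted p under 0.05), and their summed level was 46340 and 50445 CPM without and 47364 and 55352 CPM with Dox. In RNA from whole aggregates, a change in the number of cells of a type and a change in RNA per cell cannot be told apart.

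The Gnas locus is known for first exons that are spliced onto a common set of downstream exons and that differ in the parental allele they are read from. Nesp55, a chromogranin-like protein of secretory granules, comes from the maternal allele. XLas, a long form of the stimulatory G protein alpha subunit, the untranslated exon 1A transcript and the antisense Nespas come from the paternal allele. Gs-alpha itself comes from both alleles in most tissues and couples receptors to adenylyl cyclase, which makes cAMP. The counts do not carry allele information, so the parental origin of the reads was not measured.

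The parts carry a number but no position, and were matched to exons by order. The exons of the 8 RefSeq transcripts that name the Gnas unit flattened to 23 pieces. Merging pieces that differ only by a transcript's own start or end left 20, and the unit has 20 parts. The exon names below rest on this match of number and order. Parts 1 and 2 are the Nesp55 exons, of 189 and 874 bases. Part 3 is the XLas exon of 2359 bases and part 4 an alternative last exon of an XLas transcript. Parts 5 and 6 belong to exon 1A and part 7, of 429 bases, is exon 1 of Gs-alpha. These 7 parts lie upstream of exon 2, and each is held by transcripts of a single promoter. Parts 8 and 9 are the shared exons 2 and 3, part 10 is an alternative last exon after exon 3 (held in the annotation by a Nesp55 transcript only, but not counted to Nesp55 below because it follows shared exons), part 11 is a 3-base start of exon 4, and parts 12 to 20 run from exon 4 to the shared last exon.

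The proximal promoters of Nesp55 and Gs-alpha are shown because the first exons behind them differed in how their counts compared between the groups. The reference sequences used here held no window at the XLas start, so the XLas promoter could not be shown or searched. Each line gives the 250 bases before the transcription start from RefSeq (assembly GRCm38.p6, plus strand), 5′ to 3′, with GC boxes (GGGCGG on either strand) in capitals.
Nesp55 promoter, chr2:174284070-174284319: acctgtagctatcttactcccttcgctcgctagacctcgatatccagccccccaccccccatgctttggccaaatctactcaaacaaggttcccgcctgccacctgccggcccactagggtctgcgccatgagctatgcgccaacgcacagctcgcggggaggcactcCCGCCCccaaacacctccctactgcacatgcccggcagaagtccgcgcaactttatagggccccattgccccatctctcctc
Gs-alpha promoter, chr2:174329756-174330005: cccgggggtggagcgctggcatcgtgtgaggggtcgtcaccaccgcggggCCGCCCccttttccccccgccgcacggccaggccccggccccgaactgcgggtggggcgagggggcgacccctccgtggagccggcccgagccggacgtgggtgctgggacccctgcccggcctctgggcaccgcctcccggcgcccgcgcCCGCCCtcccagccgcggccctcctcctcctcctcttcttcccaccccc

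The Gs-alpha window was 80.0% G and C and held 29 CpG dinucleotides and 2 GC boxes. The Nesp55 window was 61.6% G and C and held 14 CpG dinucleotides and 1 GC box. Over 32817 promoters of the same length the median was 52.4% G and C with 6 CpG dinucleotides, and 93.2% of them had fewer CpG dinucleotides than the Gs-alpha window and 70.7% fewer than the Nesp55 window. A GC box occurred in 32.7% of all windows. The letters TATAAA, searched on both strands, occurred 1 time in the Nesp55 window, on the minus strand, and not in the Gs-alpha window (12.4% of all windows). Neither window held TAATTA, a core of homeodomain binding sites (4.8% of all windows), or TGACGTCA, the full cAMP response element (1.5% of all windows). These are matches of letters, not measured binding.

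The junctions below show why the shared exons cannot be assigned to a promoter. They are read from GENCODE M21 transcripts, with 15 bases on each side, all within coding sequence. In the first pair the bases in capitals are exon 2, which is the same whether the XLas exon or exon 1 of Gs-alpha precedes it.
XLas exon to exon 2: gcctgctgcttctagGTGCTGGAGAGTCTG
Gs-alpha exon 1 to exon 2: gcctgctgctgctggGTGCTGGAGAGTCTG
In the second pair exon 2 is joined to exon 4 without exon 3 (capitals mark exon 4 with its 3-base start) or through exon 3 (capitals mark exon 3, 45 bases or 15 codons, here followed by exon 4 without its 3-base start).
exon 2 to exon 4, exon 3 skipped: tgggtttaacggagaTAGTGAGAAGGCCAC
exon 2 to exon 4 through exon 3: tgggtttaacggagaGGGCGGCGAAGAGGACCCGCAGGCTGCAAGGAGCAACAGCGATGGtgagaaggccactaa

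The 2 upstream coding promoters, Nesp55 and XLas, had higher first-exon counts in both Dox libraries than in both libraries without Dox, while exon 1 of Gs-alpha and the gene as a whole differed little. The Nesp55 exons held 122 (replicate 1) and 78 (replicate 2) counts without Dox and 311 (replicate 1) and 445 (replicate 2) counts with Dox. Scaled to the libraries these were 4.32, 3.25, 8.34 and 8.26 CPM. The groups did not overlap, and the Dox libraries lay closer to each other than the libraries without Dox did. The mean was 3.78 ± 0.76 CPM (SD, n = 2) without and 8.30 ± 0.06 CPM (SD, n = 2) with Dox, a 2.19-fold difference. The ratio of pooled, depth-scaled counts was 2.17, with a 95% counting interval of 1.85 to 2.54.

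The XLas parts, the exon for the long N terminus of XLas and an alternative last exon, showed the larger of these ratios. They held 44 and 30 counts without Dox and 226 and 296 counts with Dox, or 1.56, 1.25, 6.06 and 5.49 CPM in the same order of libraries. No library without Dox came near the Dox libraries. The mean was 1.40 ± 0.22 CPM (SD, n = 2) without and 5.77 ± 0.40 CPM (SD, n = 2) with Dox, a 4.11-fold difference, and the pooled ratio was 4.04 (95% counting interval 3.16 to 5.23). Within each library, XLas counts per 1000 Nesp55 counts were 361, 385, 727 and 665, so XLas was the higher relative to Nesp55 in both Dox libraries.

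Exon 1A, an untranslated first exon just upstream of Gs-alpha, went the other way by a small amount. Its counts were 38 and 37 without Dox and 45 and 65 with Dox, which is 1.35, 1.54, 1.21 and 1.21 CPM. Both Dox libraries lay below both others, but the pooled ratio of 0.840 had a 95% counting interval of 0.621 to 1.14, so at this depth a difference was not detectable beyond counting error.

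Exon 1 of Gs-alpha, the first exon of the ubiquitous stimulatory subunit, had 1233 and 1004 counts without Dox and 1754 and 2486 counts with Dox. This was 43.7, 41.8, 47.0 and 46.1 CPM. The groups did not overlap, and the difference between their means, 42.7 ± 1.32 and 46.6 ± 0.63 CPM (SD, n = 2 each), was 1.09-fold (pooled ratio 1.09, 95% counting interval 1.03 to 1.14). This interval covers counting error only and not the spread between replicates. The fitted log2 change was 0.09 (SE 0.22).

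**Figure D1:**
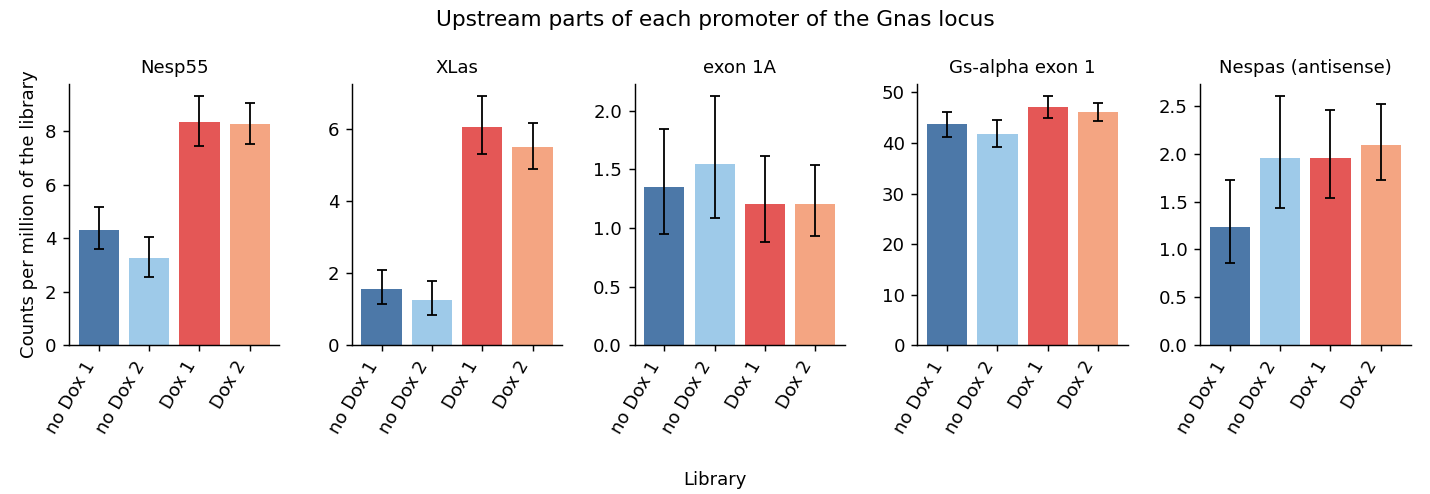
Level of the upstream parts of each promoter of the Gnas locus and of Nespas, in CPM (y axis, a separate linear scale from 0 in each panel), for the 4 libraries (x axis). Bars are single libraries and error bars exact 95% Poisson intervals for counting error; Nesp55 stands at 4.32 and 3.25 without and 8.34 and 8.26 with Dox, XLas at 1.56 and 1.25 without and 6.06 and 5.49 with Dox, and the Nespas bars overlap between the groups.

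Per length, exon 1 of Gs-alpha had the highest counts of the first exons in each library. Its level was 102, 97.4, 109.6 and 108 CPM per kilobase. The Nesp55 exons stood at 4.06, 3.05, 7.84 and 7.77 CPM per kilobase. The XLas exon alone, without the alternative last exon, stood at 0.660, 0.512, 2.47 and 2.21 CPM per kilobase. Exon 1A lay between 4.52 and 5.77 CPM per kilobase. The order without Dox was therefore Gs-alpha, exon 1A, Nesp55 and XLas, and with Dox Nesp55 lay above exon 1A. The main piece of exon 1A alone stood at 4.23 and 5.14 without and 3.42 and 3.66 CPM per kilobase with Dox. In no Dox replicate 1 it was thus close to Nesp55. Counts per base of exon 1 of Gs-alpha exceeded those of the XLas exon by 154 and 190 times without Dox and by 44.4 and 48.6 times with Dox. The corresponding ratio over the Nesp55 exons was 25.0 and 31.9 without and 14 and 13.8 with Dox. Exon 2, which transcripts of all 4 promoters hold, stood at 697, 738, 777 and 787 CPM per kilobase, far above each first exon. Counts per length are thus not comparable between parts as numbers of transcripts, and these ratios are not ratios of molecules. The cause of this gap was not tested.

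Ratios taken within a library do not depend on how the libraries are scaled, and they gave the same picture. Nesp55 counts per 1000 counts of Gs-alpha exon 1 were 98.9 and 77.7 without Dox and 177 and 179 with Dox. XLas counts per 1000 counts of Gs-alpha exon 1 were 35.7 and 29.9 without and 129 and 119 with Dox. Exon 1A had 30.8 and 36.9 without and 25.7 and 26.1 with Dox. In each of these 3 ratios the groups did not overlap. Of the counts of the 4 first-exon groups together, Gs-alpha took 85.8% (exact binomial 95% interval 83.9% to 87.6%) and 87.4% (85.3% to 89.2%) without Dox. It took 75.1% (73.3% to 76.8%) and 75.5% (74.0% to 77.0%) with Dox. XLas took 3.06% and 2.61% of them without Dox and 9.67% and 8.99% with Dox, and Nesp55 8.49% and 6.79% without and 13.3% and 13.5% with Dox. Because the parts differ in length, these are shares of counts and not of molecules.

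**Figure D2:**
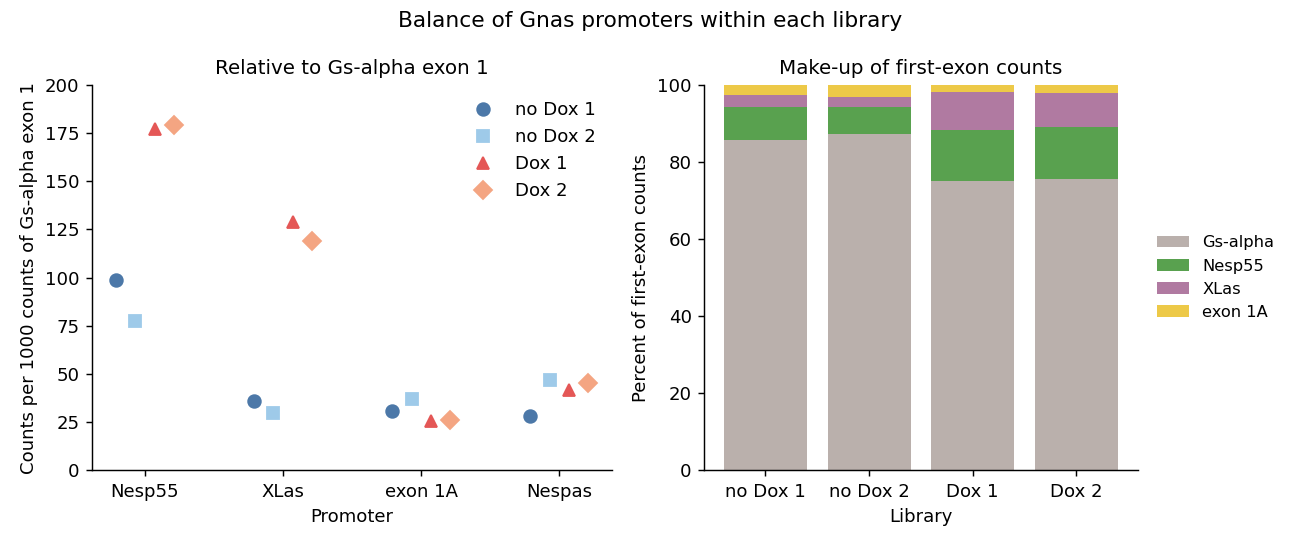
Left, counts of each promoter's parts per 1000 counts of Gs-alpha exon 1 (y axis) for Nesp55, XLas, exon 1A and antisense Nespas (x axis), 1 symbol per library. Right, percent of the 4 first-exon groups' counts (y axis) taken by each promoter in each library (x axis); Gs-alpha takes 85.8% and 87.4% without and 75.1% and 75.5% with Dox.

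Within the Nesp55 and XLas groups, the longer exon carried most of the counts. Nesp55 exon 2, which holds the coding sequence of the granule protein, had 4.21, 3.08, 8.04 and 7.68 CPM. Its fitted log2 change was 1.08 (SE 0.23). Nesp55 exon 1 had 3 and 4 counts without and 11 and 31 counts with Dox (pooled ratio 3.44, 95% counting interval 1.53 to 9.07). Both Nesp55 exons were thus higher in both Dox libraries. The XLas exon alone had 1.56, 1.21, 5.82 and 5.21 CPM, with a fitted log2 change of 1.96 (SE 0.25). The alternative last exon of XLas had 0 and 1 counts without and 9 and 15 counts with Dox (pooled ratio 13.8, 95% counting interval 2.24 to 565). A count of 0 in no Dox replicate 1 allows up to 0.106 CPM. For exon 1A the main piece of 243 bases had a fitted log2 change of -0.42 (SE 0.35), and the 24-base piece one of 0.14 (SE 0.50), so the pieces did not share a direction beyond their errors.

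The downstream exons, which all 4 promoters share, carried most of the counts of the gene and differed between the groups by less than their errors. Over the 11 shared exons the fitted log2 changes ran from -0.11 to 0.09, with a median of -0.04 and standard errors of 0.23 to 0.30. Exon 2 had 50.9, 53.9, 56.7 and 57.5 CPM. The shared last exon had 290.4, 414, 313 and 359.9 CPM, and here the groups overlapped. Only exons 2, 3 and 4 among the 11 had both Dox libraries above both others. Over all parts with at least 10 counts 17.2% did, so nothing is read from this count. The sum over all Gnas parts was 1356, 1704, 1471 and 1606 CPM, with means of 1530 ± 246 without and 1539 ± 95.7 with Dox (SD, n = 2 each) and a log2 change of -0.01 (SE 0.15). The gene total thus overlapped between groups, and its spread was largest between the libraries without Dox. Nesp55 and XLas parts together made up 0.434% and 0.264% of the counts of the gene without Dox and 0.979% and 0.856% with Dox.

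**Figure D3:**
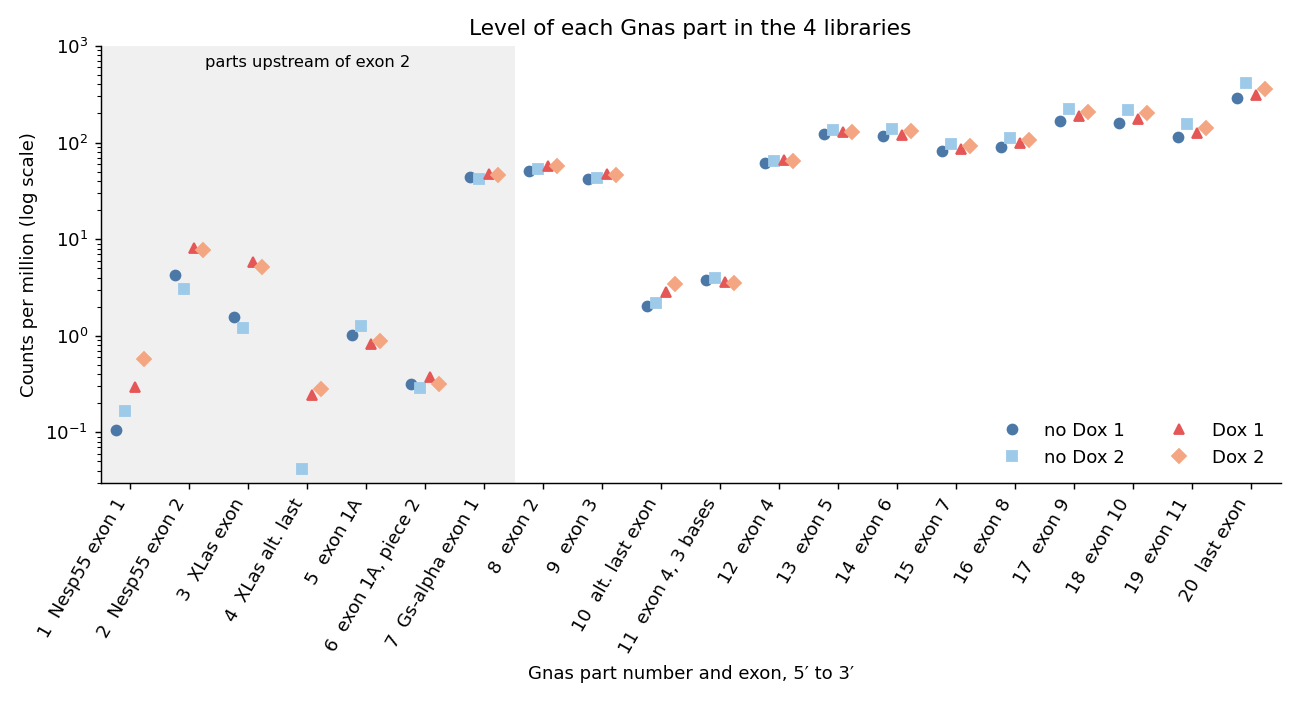
Level of each of the 20 Gnas parts in CPM (y axis, log scale) from the 5′ to the 3′ end of the locus (x axis), 1 symbol per library; shading marks the 7 parts upstream of exon 2, and the count of 0 of part 4 in no Dox replicate 1 cannot be drawn on a log scale. The XLas exon stands at 1.56 and 1.21 without and 5.82 and 5.21 with Dox, while the groups overlap at each exon from exon 5 on.

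The libraries differed in how counts were spread between the ends of the shared region. The last exon held 5.71, 7.68, 5.52 and 6.26 counts per count of exon 2 in the same order of libraries. No Dox replicate 2, the library with the highest value, also had the lowest Nesp55 and XLas levels and the highest gene total. The part of this spread in the first-exon values was not tested. Without that library the log2 ratio was 0.94 for Nesp55 and 1.89 for XLas.

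The share of exon 3 did not separate the groups. Exon 3, which distinguishes the long from the short form of Gs-alpha, had 82.6 and 80.0 counts per 100 counts of exon 2 without Dox and 82.8 and 80.1 with Dox. The groups overlapped, and the replicates differed by more than the groups did, with replicate 1 the higher in both groups. The 3-base start of exon 4, which adds a serine codon, had 6.22 and 6.20 counts per 100 counts of exon 4 without and 5.45 and 5.42 with Dox, so the Dox libraries lay slightly below. Its fitted log2 change was -0.16 (SE 0.23). The alternative last exon after exon 3, which ends an annotated Nesp55 transcript, had 2.02, 2.21, 2.84 and 3.41 CPM and a fitted log2 change of 0.54 (SE 0.27). Relative to exon 3 it had 4.8 and 5.12 counts per 100 without and 6.05 and 7.42 with Dox, with no overlap between the groups. Which promoter these reads started from is not given by the counts.

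Set against all parts in the tables, 18 of the 20 Gnas parts passed the filter on low counts, which left out Nesp55 exon 1 and the alternative last exon of XLas, and 1 of the 18, the XLas exon, was called higher with Dox by edgeR's quasi-likelihood test. Over all 129524 parts tested 0.284% were called higher and 0.00386% lower, and no Gnas part was called lower. The median log2 change was -0.02 over the tested Gnas parts and -0.02 over all parts, of which 2.44% had a log2 change of at least 1 and 0.750% of at most -1. Relative to the rest of the gene, the log2 change of the XLas exon was 1.99 and that of Nesp55 exon 2 was 1.11. In this comparison of part use 1 Gnas part, the XLas exon, was called, where 0.00157% of 127639 parts were called higher and 0.00392% lower. Both Dox libraries lay above both others in 9 Gnas parts (17.2% of all parts with at least 10 counts) and below both in 2 (10.5% of all such parts). Since the same contrast chose the locus, these counts are a description, and nothing is read from them.

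The call of the XLas exon, a description only since the same contrast chose the locus, did not hold under every setting. With library totals as the only scaling 0 Gnas parts were called and the log2 change of the XLas exon was 1.99. In the test of part use it was not called without no Dox replicate 2, without Dox replicate 1 or without Dox replicate 2, with relative log2 changes of 1.63, 1.86 and 2.14, and it was called without no Dox replicate 1 at 2.33.

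**Figure D4:**
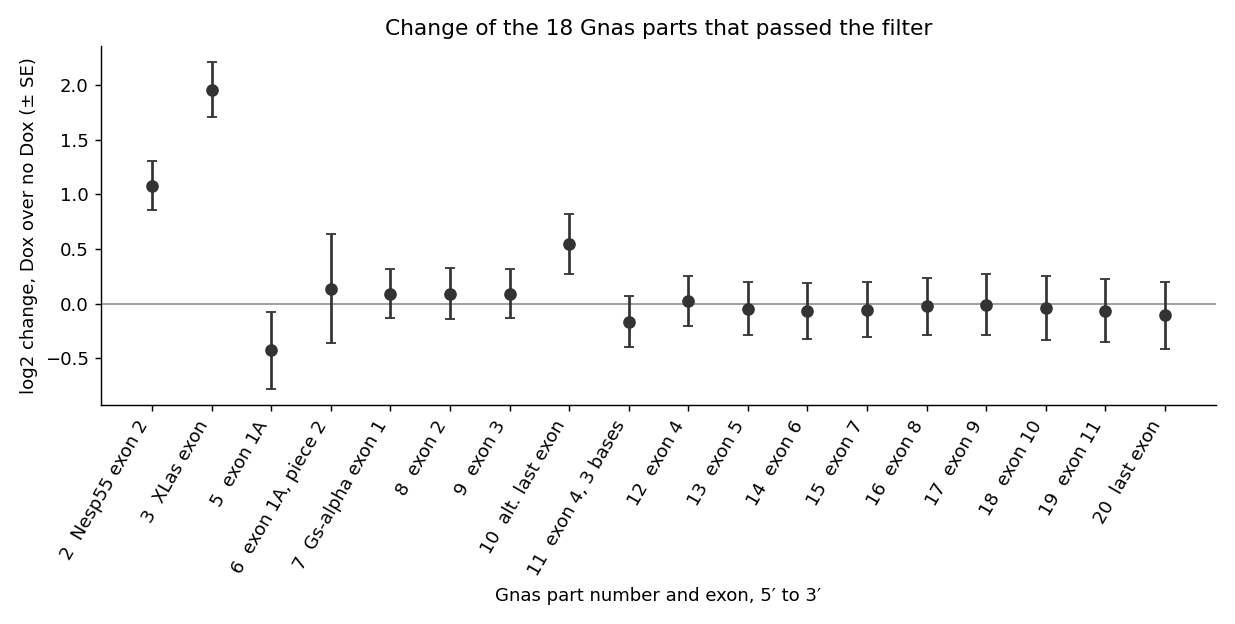
Fitted log2 change with Dox over no Dox (y axis, points with standard errors from edgeR) for the 18 Gnas parts that passed the filter on low counts (x axis, 5′ to 3′). The XLas exon stands at 1.96 and Nesp55 exon 2 at 1.08, and the shared exons lie between -0.11 and 0.09.

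Nespas, the antisense transcript that starts between Nesp55 and XLas and runs across Nesp55, had 35 and 47 counts without Dox and 73 and 113 counts with Dox over its 5 parts. This was 1.24, 1.96, 1.96 and 2.10 CPM. The groups overlapped, and the pooled ratio was 1.30 (95% counting interval 0.997 to 1.71). Of its 5 parts 1, of 1266 bases, passed the filter, with a log2 change of 0.30 (SE 0.42). Without no Dox replicate 2 the log2 ratio of Nespas was 0.71, and without no Dox replicate 1 it was 0.051. The middle Nespas exon, of 206 bases, had 0 counts in all 4 libraries, and 111 of its bases lie in the Nesp55 exons on the other strand. Whether the counting used strand is not given in the sources used here, so sense and antisense reads over this stretch cannot be told apart. The part of Nesp55 and Nespas reads exchanged in this way was not tested.

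Among tested genes of at least 50 CPM with 1 symbol (4960 genes), those whose levels over the 4 libraries followed the Gnas total most closely were Stk11, Eri3 and Rbm42. The root mean square distance between their centred log2 profiles and that of Gnas was 0.00612, 0.00894 and 0.00924. Stk11, a serine/threonine kinase, had 85.6, 109, 93.4 and 101 CPM, the same order of libraries as Gnas. The likeness rests on 4 libraries and is a description.

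To place the locus among the genes it works with, 12 lists of 161 genes around Gs-alpha signalling, secretory granules and imprinting were described. H19 was not matched to a unit and the other 160 were. Of these 132 were tested, 6 were called higher with Dox, 0 lower and 126 not called (edgeR's quasi-likelihood test, Benjamini-Hochberg adjusted p under 0.05). Over all genes tested 1.23% were called higher and 0.056% lower. At an unadjusted p under 0.05 there were 21 higher and 8 lower, and DESeq2 called 11 higher and 2 lower. The shares of all genes at an unadjusted p under 0.05 and with DESeq2 are not given here. Nothing is therefore read from such counts, here or for the single lists below. The median log2 change was 0.10, against -0.01 over all genes.

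Among receptors that couple to Gs-alpha, 1 of 19 tested (32 listed) was called higher, and the median log2 change was 0.45. This was Mc4r, the melanocortin receptor of energy balance, with 1 and 6 counts without and 73 and 137 counts with Dox. The groups did not overlap, and the pooled ratio was 17.2 (95% counting interval 8.20 to 43.3; edgeR adjusted p = 0.0487). The adjusted p of Mc4r rose to 0.0502 with DESeq2 size factors and 0.0583 with limma-voom, within a range over its alternatives of 7.06e-06 to 0.0583. Its fitted log2 change was 4.0, but 5.81 when no Dox replicate 2 was left out and 3.18 when no Dox replicate 1 was left out. Of the 19 tested receptors 15 had a log2 change above 0 and 4 below. The summed level of the list was 550 and 646 CPM without and 535 and 624 CPM with Dox. Most of it was Pth1r, with 520 and 611 CPM without and 495 and 575 CPM with Dox (log2 change -0.10, SE 0.14). At an unadjusted p under 0.05 there were 4 receptors higher and 1 lower. DESeq2 also called Tshr higher and Calcr lower, which are named for that reason and were not called by edgeR (log2 change 1.62, adjusted p = 0.0770, and -1.49, adjusted p = 0.0735).

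Of the other G protein alpha subunits 1 of 12 tested was called higher, and the median log2 change was 0.01. Gna14, of the Gq class, rose from 3 and 3 counts to 48 and 109 counts (pooled ratio 15, 95% counting interval 6.74 to 41.5, edgeR adjusted p = 0.0318). Among the beta and gamma subunits, the partners of the alpha subunit, 1 of 13 tested was called higher, with a median of 0.28. Gng2 had 52.1 and 51.8 CPM without and 148 and 148 CPM with Dox (log2 change 1.49, SE 0.11, edgeR adjusted p = 0.0035). DESeq2 called Gnb4 higher as well, which edgeR did not (log2 change 0.58, adjusted p = 0.137). A list of 3 chaperones of G protein subunits had no call with any of edgeR, limma-voom and DESeq2 (median 0.05, 0 at an unadjusted p under 0.05). Its most abundant members had log2 changes of 0.05 for Pdcl (SE 0.10) and 0.14 for Ric8a (SE 0.12).

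Of the adenylyl cyclases, the enzymes that Gs-alpha activates, 1 of 8 tested was called higher and the median was 0.27. Adcy2 had 13.1 and 14.6 CPM without and 28.9 and 25.9 CPM with Dox (log2 change 0.97, SE 0.15, edgeR adjusted p = 0.0479). The adjusted p of Adcy2 was 0.0561 with limma-voom and 0.0982 without Dox replicate 1, and 0.532 with the largest part as its count, where the log2 change was 0.78, and it ran from 1.54e-05 to 0.532 over its alternatives. DESeq2 also called Adcy1 higher and Adcy8 lower, which are named for that reason and were not called by edgeR (log2 change 1.38, adjusted p = 0.129, and -1.39, adjusted p = 0.213).

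Downstream of cAMP no gene of the lists was called by any of edgeR, limma-voom and DESeq2, each fitted without a replicate block. Of the subunits and inhibitors of the cAMP-dependent protein kinase 0 of 8 tested were called, with a median log2 change of -0.02 and 2 at an unadjusted p under 0.05. Prkar1a, the main regulatory subunit by level here, had 323, 325, 334 and 336 CPM. Prkacb, a catalytic subunit, had a log2 change of 0.09 (SE 0.13). Of the phosphodiesterases that break down cyclic nucleotides 0 of 13 tested were called (median 0.01, 2 at an unadjusted p under 0.05), with -0.15 for Pde7a (SE 0.15) and -0.29 for Pde3b (SE 0.16). Of the other cAMP effectors and CREB factors 0 of 9 were called (median 0.15, 0 at an unadjusted p under 0.05). Creb1, the cAMP-responsive transcription factor, had a log2 change of -0.19 (SE 0.11) and its coactivator Crebbp one of 0.02 (SE 0.19).

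Secretory granule proteins, the class that Nesp55 belongs to, had 1 of 11 tested genes called higher and a median log2 change of 0.14. By log2 change 6 of the 11 lay above 0 and 5 below. Among these 5 were Chgb (-0.21), Scg3 (-0.44), Scg5 (-0.46) and Ptprn2 (-0.62). Vgf, a neuropeptide precursor, had 0.885 and 0.666 CPM without and 4.18 and 3.91 CPM with Dox (log2 change 2.34, SE 0.30, edgeR adjusted p = 0.0261). Chga, the chromogranin that Nesp55 resembles, was picked for mention after its values were seen and was not called by edgeR. It had 4.0 and 3.25 CPM without and 11.2 and 8.72 CPM with Dox (edgeR adjusted p = 0.0674), and DESeq2 did call it higher. A separate list of 6 neuroendocrine markers, which shares Chga and other granule genes with this one, had 0 of 5 tested genes called by edgeR (3 at an unadjusted p under 0.05, and Chga alone by DESeq2) and a median of -0.21, and its summed level was 53.0 and 42.0 CPM without and 49.6 and 34.6 CPM with Dox.

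Other imprinted genes were described by the parental allele they are known to be read from. Of 18 paternally expressed genes, the parental class of XLas, 0 were called by edgeR or limma-voom, each fitted without a replicate block. DESeq2 called 1, Magel2, higher. Over the 18 genes the median log2 change was -0.03, with 3 at an unadjusted p under 0.05 in edgeR. The most abundant were Mest, with a log2 change of 0.25 (SE 0.13), and Peg10, with -0.30 (SE 0.15). Of 11 maternally expressed genes tested, the class of Nesp55, 1 was called higher and the median was 0.12. Cdkn1c, a cell cycle inhibitor, had 163 and 181 CPM without and 409 and 384 CPM with Dox (log2 change 1.19, SE 0.12, edgeR adjusted p = 0.0100).

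None of the tested genes next to Gnas on the chromosome was called by any of edgeR, limma-voom and DESeq2. Of 9 listed, 7 were tested and 0 were called (median log2 change 0.06, 1 at an unadjusted p under 0.05). Ctsz, a lysosomal protease, had 191, 256, 206 and 264 CPM, and Nelfcd, a subunit of the negative elongation factor, had a log2 change of -0.11 (SE 0.13). The values of Ctsz differed more between replicates than between groups.

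**Figure D5:**
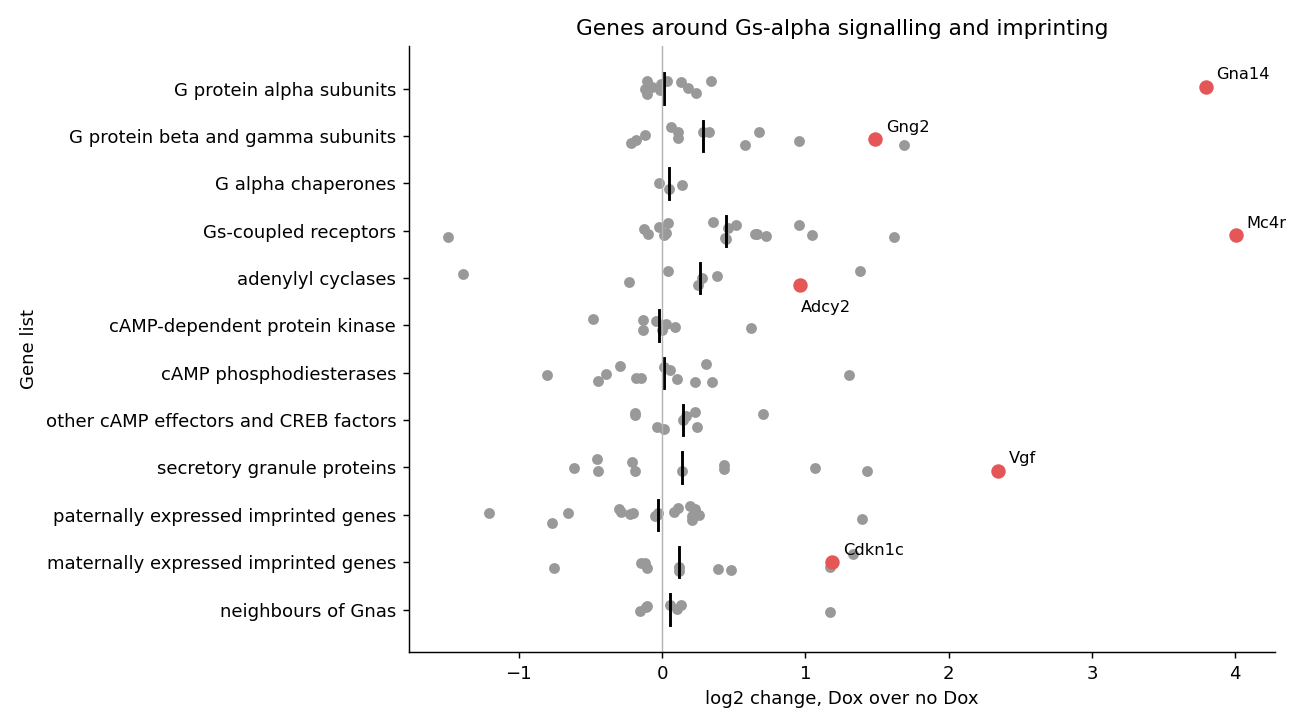
Log2 change with Dox over no Dox (x axis) of each tested gene in the 12 lists around Gs-alpha signalling, secretory granules and imprinting (y axis). Grey points were not called, red points with names are the 6 genes called higher by edgeR at an adjusted p under 0.05, and black ticks are list medians, which run from -0.03 to 0.45.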

How the data were processed

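The deposited values are whole-number counts that the authors made for each part of each gene, 1 table per sample. TopHat and the mouse build mm9 are named per the submitters' processing notes, with no version. Which counting tool and annotation were used, and whether strand was used, is not given in the sources used here. A read over several parts may be counted in each. The 4 rows of each table that name no gene stayed out of totals and tests (reads outside genes 13.6% to 15.8% and ambiguous reads 0.411% to 0.521% of all counts).

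Of 27601 transcript identifiers 97.1% matched the RefSeq gene table (GRCm38.p6) or GENCODE M21. These are later builds than mm9, so they gave names, exon order, exon lengths and sequences, and no position in mm9. In 2231 of 2317 minus-strand units (96.3%) counts correlated better with exon lengths taken in genomic than in transcript order (median rho 0.58 against -0.094), so genomic order was used.

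Part counts, and their sums per gene, were tested with edgeR 4.0.16 (R 4.3.3; quasi-likelihood, robust, TMM, filterByExpr, Benjamini-Hochberg at 0.05) over all genes or parts, and part use with diffSpliceDGE. The scripts were tested on simulated data. Poisson and binomial intervals (exact, 95%) and the floor of 3 counts cover counting error only. An exact permutation test of 2 against 2 libraries cannot go below p = 0.333, so none was used for single values. Replicate numbers came from the titles; the correlation of log2 CPM between replicates was 0.990 without and 0.993 with Dox.

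Alternatives were DESeq2 1.42.0 and its size factors, library totals, limma-voom (limma 3.58.1), no filter, a replicate block, leaving out each library, the largest part as the gene count and, for first exons, TMM scaling, scaling to the gene and parts of at least 50 bases. Named genes are Gnas and Nespas, the called members of each list (at most 3, by adjusted p) or, in a list with no call, its 2 most abundant members, and the 3 genes nearest to Gnas in profile. Members and lists were chosen with earlier results of these data known.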

Additional observations from a re-analysis of the deposited data

How the results depend on the processing

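The first-exon ratios kept their direction under each alternative. Leaving out each library in turn, the log2 ratio ran from 0.94 to 1.35 for Nesp55 (1.35 without no Dox replicate 1), from 1.89 to 2.21 for XLas, from -0.35 to -0.16 for exon 1A, from 0.09 to 0.16 for Gs-alpha and from 0.051 to 0.71 for Nespas. Exon 1A stood at -0.40 with only parts of at least 50 bases. The log2 change of the whole Gnas gene ran from -0.12 to 0.12. Since the same contrast chose the locus, the calls of Gnas parts given next are a description and carry no test. The number of Gnas parts called higher was 1, against 0 with library totals, 2 with no filter and 1 to 2 with a library left out. In the test of part use it was 1, against 0 to 1 with a library left out. Of the pathway genes 6 were called higher, against 11 with DESeq2 and 8 to 9 with a library left out, and 0 lower, against 1 with no filter, 2 with DESeq2 and 0 to 2 with a library left out. With the replicate number as a block, 2 Gnas parts were called higher, 2 in the test of part use, and 20 pathway genes were called higher and 11 lower, among them Pde3b (adjusted p = 0.0318) and Peg10 (adjusted p = 0.0228). The labels give no shared batch for the numbers, and deviations of samples with the same number correlated at 0.603 over only 2 pairs. The cause of these changes was not tested. The shares of all genes and parts called under each alternative are not given here. Nothing is read from the counts of calls above. The Gna14 call was lost with the largest part as its count (adjusted p = 0.0592, the highest of its alternatives, which ran from 2.17e-05). Counts of 10 or fewer limit Nesp55 exon 1, the XLas alternative last exon, the 24-base piece of exon 1A, Mc4r and Gna14 without Dox. In the same libraries such counts also limit the Nespas parts other than the one of 1266 bases.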
